A study of Caenorhabditis elegans with 4 samples.

Results

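The regions described here are DPY-26 peaks of the X chromosome that were backed by the second ChIP replicate alone. They were chosen from a peak list of the whole series. An X peak of that list was taken when at least 1 bp of it lay in a peak of ChIP replicate 2 and none of it lay in a peak of ChIP replicate 1. This gave 4818 of the 8498 series-wide X peaks, or 56.7%, out of 9365 series-wide peaks in all. They are called replicate 2-only peaks. X peaks met by both replicate lists, of which there were 1340, are called shared peaks, and the 2286 met by neither list are called unbacked peaks. A further 54 X peaks were met by replicate 1 alone. The replicate lists themselves chose these groups, so the contrasts between them are descriptions and carry no test.

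DPY-26 is a kleisin, the subunit that closes the ring of a condensin complex. In C. elegans it belongs both to the mitotic condensin I and to a condensin that acts in X-chromosome dosage compensation. The dosage compensation complex loads onto the X chromosomes of hermaphrodites at a limited set of recruitment sites, spreads from them along the chromosome, and lowers X transcription. Complex that has spread is known to lie at many weaker sites, often at promoters of active genes, while the single X of males is not bound. Lower-scoring peaks between the strongest sites are therefore candidates for sites of spreading. The peak lists alone do not tell recruitment sites from sites of spreading.

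Binding was measured by chromatin immunoprecipitation and sequencing in mixed-stage embryos of wild-type N2, grown at 20 degrees Celsius, with 2 ChIP samples (rabbit polyclonal anti-DPY-26) and 2 input DNA samples. All samples came from whole embryos of both sexes fixed in formaldehyde (2%, 30 min), so cell types and sexes are averaged. The proportion of each sex is not known here. Labels do not state whether the replicates were separate cultures. The lists of both ChIP replicates and of the whole series were used. Input values were not analysed here, and the read depth behind each list is unknown.

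The replicate lists differed in breadth on X before any selection. Replicate 2 held 3652 X peaks with a median width of 1363.5 bp and a smallest width of 722 bp. Replicate 1 held 1451 X peaks with a median width of 485 bp and a smallest width of 179 bp. Replicate 2 peaks covered 36.9% of X and replicate 1 peaks 4.66%. Being met by replicate 2 and not by replicate 1 therefore depends on how much of X each list covers. Absence from the replicate 1 list does not show absence of DPY-26 there. Positions refer to WormBase WS220. The score is a value that the authors gave to each peak, and the sources used here do not define it.

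Replicate 2-only peaks were narrow. Their median width was 317 bp, with an interquartile range of 218 to 438 bp and a full range of 146 to 2407 bp. Shared peaks had a median of 649.5 bp (516 to 853 bp) and unbacked peaks one of 208 bp (171 to 269 bp). The median shared peak was thus 2.05 times as wide as the median replicate 2-only peak, which was 1.52 times as wide as the median unbacked peak. Only 325 replicate 2-only peaks, or 6.75%, were wider than the median shared peak, and 36 reached 1000 bp. At the narrow end, 960 of them (19.9%) were under 200 bp, against 0.896% of shared and 45.2% of unbacked peaks. The smallest width, 146 bp, was held by 61 replicate 2-only and 91 unbacked peaks, so the narrow side of both distributions ended at the smallest width of the list. Together the replicate 2-only peaks covered 9.66% of X, more than the 5.96% covered by shared peaks.

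Their scores were also between those of the other groups. The series-wide score of replicate 2-only peaks had a median of 6.89 (interquartile range 4.54 to 11.6), while the median was 39.7 for shared and 4.56 for unbacked peaks. The lowest was 1.33 and the highest 104.74. Among the 4818, 37 (0.768%) scored above the median shared peak and 281 (5.83%) above the lower quartile of shared peaks, 21.4. Wider replicate 2-only peaks had higher scores (Spearman rho = 0.595 across peaks of 1 list, which are not independent). Ranked against the score of the enclosing replicate 2 peak, the relation was weak over all 4818 peaks (rho = 0.101, across peaks, many of which share a replicate 2 peak). The median replicate 2 score was 168 for series-wide scores under 5 and 152 from 5 to 10. It was 191 from 10 to 20, 258 from 20 to 50 and 536 for the 13 peaks at 50 or more.

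**Figure D1:**
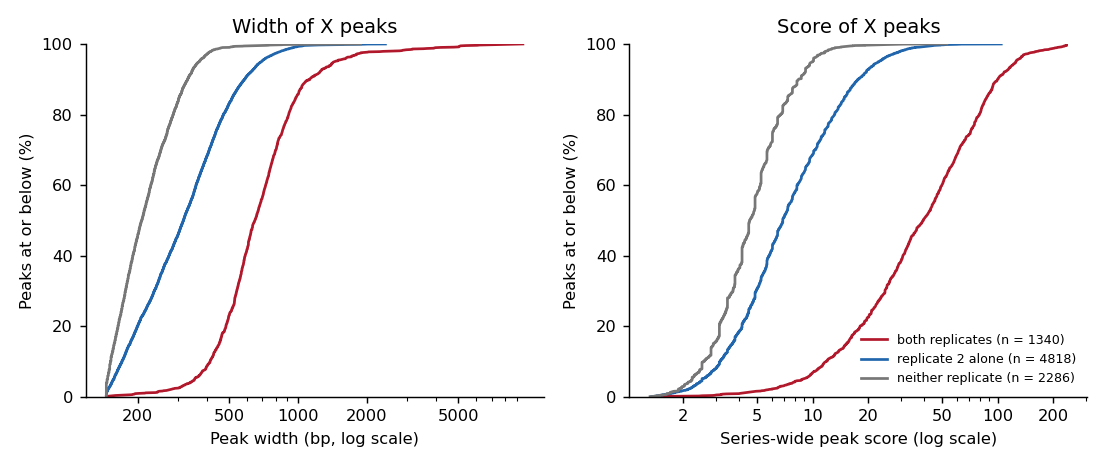
Cumulative share of X peaks (y axis, percent) by peak width in bp and by series-wide score (x axes, log scales), for 1340 shared, 4818 replicate 2-only and 2286 unbacked peaks. The replicate 2-only curve lies between the other curves in both panels, with medians of 317 bp and 6.89.

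The share of X peaks that were replicate 2-only was highest at intermediate series-wide scores. Among X peaks scoring under 5, 1467 of 2812 were replicate 2-only, or 52.2% (95% exact interval 50.3% to 54.0%). The share was 66.2% from 5 to 10 and 77.7% (75.5% to 79.8%) from 10 to 20. It was 39.4% from 20 to 50, where 58.7% of X peaks were shared. At 50 or more, 13 of 555 were replicate 2-only, or 2.34% (1.25% to 3.97%). The group was thus concentrated in the lower and middle scores, with 30.4% of it below 5, 38.2% from 5 to 10 and 24.1% from 10 to 20. These intervals cover counting error only.

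A few replicate 2-only peaks had scores typical of shared ones. The highest-scoring lay at X 15849027 to 15849946, was 920 bp wide and scored 104.74 in the series-wide list. It was the only series-wide peak of its group in a replicate 2 peak of 1372 bp with a replicate 2 score of 884, and the nearest replicate 1 peak was 7450 bp away. The next was at X 16375730 to 16376275, with a series-wide score of 77.8 and a replicate 2 score of 528, and lay 1405 bp from a replicate 1 peak. The third, at X 15441060 to 15441794, scored 63.7 and lay 1938 bp from one. The region at X 13780929 to 13781767 (series-wide score 57.4, replicate 2 score 657) was the most distant of the 10 highest, at 26198 bp from the nearest replicate 1 peak. Of these 10, 8 lay in a replicate 2 peak that no replicate 1 peak met. The exceptions were X 8048364 to 8049364, with a series-wide score of 62.5 inside a replicate 2 peak scoring 2908, and X 380991 to 381419, with a series-wide score of 53.2 inside one scoring 1340.5. The remaining ones scored from 52.3 to 61.5 and lay at X 16298023 to 16298483 and X 11974578 to 11975064, as well as at X 13245102 to 13245867 and at X 1334341 to 1334809.

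Each replicate 2-only peak met exactly 1 replicate 2 peak, and 4761 of them (98.8%) lay wholly inside it. Replicate 2 peaks on X were at least 722 bp wide, so containment of narrower peaks is partly set by their widths. The 4818 peaks lay in 2901 replicate 2 peaks, or 79.4% of that list on X. A replicate 2 peak held 1 of them in 1728 cases, 2 in 796 cases and 3 in 218 cases, and 83 replicate 2 peaks held 5 or more. Replicate 2-only peaks that shared a replicate 2 peak are not separate observations in that replicate, and 35.9% of them were the only replicate 2-only peak in theirs. Of the 1728 replicate 2 peaks that held 1, 285 also met a replicate 1 peak. The median width of the enclosing replicate 2 peak was 1121 bp with 1 held, 1647 bp with 2 and 4724 bp with 5.

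Most of the enclosing replicate 2 peaks had no counterpart in replicate 1. Of the 2901, 2418 met no replicate 1 peak, and these held 3857 replicate 2-only peaks (80.1%). Their median width was 1249.5 bp and their median replicate 2 score 117 (interquartile range 76.2 to 200.2). The remaining 483 met a replicate 1 peak elsewhere along their length and held 961 replicate 2-only peaks (19.9%). That share was 45.8% with the replicate 2 X list cut by score to the length of the replicate 1 list, and 6.94% with X peaks merged within 500 bp. These 483 replicate 2 peaks were wider and higher-scoring, with medians of 2628 bp and 806. A replicate 2 score of 1000 or more was reached by 183 of the 483 and by 7 of the 2418. The 696 replicate 2 peaks that met replicate 1 and held no replicate 2-only peak had medians of 1330 bp and 518.

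The replicate 2-only peaks themselves had somewhat lower median widths and scores where the enclosing replicate 2 peak met replicate 1. Those inside a replicate 2 peak that also met replicate 1 had a median width of 291 bp (205 to 423 bp) and a median series-wide score of 6.21 (4.15 to 10.1). Those in replicate 2 peaks without replicate 1 had medians of 322 bp (222 to 441 bp) and 7.06 (4.70 to 12.0). The interquartile ranges overlapped for both measures. Of the first kind, 872 of 961 (90.7%) lay outside the outermost replicate 1 peaks of the enclosing region and 89 lay between replicate 1 peaks. Where the enclosing region met only 1 replicate 1 peak, a position outside was the only one possible. The share therefore does not show a preference for the flanks.

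**Figure D2:**
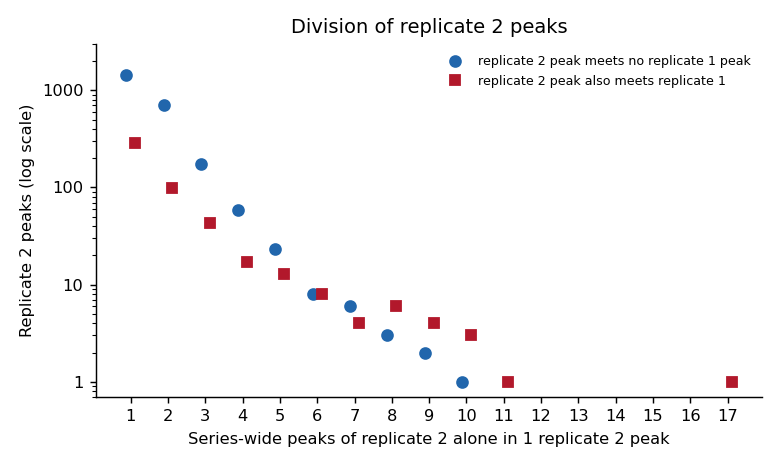
Number of replicate 2 peaks (y axis, log scale) by how many replicate 2-only peaks they held (x axis), for replicate 2 peaks that met no replicate 1 peak (circles) and those that met one (squares); a count of 0 is not drawn. Peaks without replicate 1 were more numerous up to 5 held and at 7 held, and the kinds were equal at 6 held. The highest counts, 11 and 17, were in peaks that met replicate 1.

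The replicate 2 peak that held the most replicate 2-only peaks spanned X 11470936 to 11486988. It was 16053 bp wide and held 17 replicate 2-only peaks and 3 shared peaks. Its replicate 2 score was only 103, and its replicate 2-only peaks scored 1.79 to 30.6 in the series-wide list, with a median of 4.71. The longest unbroken run of replicate 2-only peaks on X began in it. That run had 21 in a row between X 11475029 and 11493948 and extended over 3 replicate 2 peaks. The replicate 2 peak at X 9508014 to 9516787 held 11 replicate 2-only peaks and scored 875. That at X 12077875 to 12085815 held 10 and scored 2257, and that at X 10770556 to 10782402 held 10 and scored 238. Another at X 3110323 to 3127000 also held 10, tied with these, and scored 86.8.

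The replicate 2 peak at X 2911680 to 2917802 also held 10, but met no replicate 1 peak at all. It was 6123 bp wide with a replicate 2 score of 1051, and its replicate 2-only peaks scored 1.51 to 8.58 in the series-wide list. Other replicate 2 peaks with high scores and no replicate 1 peak, picked after their values were seen, were at X 3903041 to 3910179 (score 1902), X 10513974 to 10518945 (score 1453) and X 15516778 to 15523818 (score 1183). They held 9, 5 and 7 replicate 2-only peaks, and the nearest replicate 1 peaks were 1052, 5400 and 716 bp away. Broad, high-scoring replicate 2 regions were thus among those missing from the replicate 1 list.

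Distance to the nearest shared peak was measured from edge to edge. Its median over the replicate 2-only peaks was 4309.5 bp, with an interquartile range of 1577 to 8910 bp and a range of 43 to 49056 bp. With the replicate 2 X list cut to the length of the replicate 1 list, the median was 2299 bp. Of these peaks, 859 (17.8%) lay within 1000 bp of a shared peak and 1009 (20.9%) lay 10000 bp or more away. Shared peaks lay a median of 3697.5 bp from the nearest other shared peak. Unbacked peaks lay farther from shared peaks, at a median of 6132.5 bp, with 5.16% within 1000 bp. Distance to the nearest replicate 1 peak gave nearly the same picture, with a median of 4345.5 bp.

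The nearness of some replicate 2-only peaks went with a common replicate 2 peak, which the split used here partly sets by construction. In 1 kind a replicate 1 peak lies in the enclosing replicate 2 peak, and in the other kind none can. The 961 whose replicate 2 peak also met replicate 1 lay a median of 499 bp from a shared peak (224 to 1076 bp). The other 3857 lay a median of 5738 bp away (2914 to 10302 bp), and only 159 of them (4.12%) were within 1000 bp. Under 500 bp from a shared peak, 481 of 485 replicate 2-only peaks were in a replicate 2 peak that met replicate 1. That fraction was 58.6% from 500 to 1000 bp, 27.5% from 1000 to 2000 bp, 7.02% from 2000 to 5000 bp and 1.50% from 5000 to 10000 bp.

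Counted by midpoint, the density of replicate 2-only peaks differed by 1.52 times at most with distance from shared peaks. There were 2.57 per 10 kb of X within 500 bp of a shared peak and 3.52 per 10 kb from 500 to 1000 bp. A midpoint lies farther from a shared peak than the near edge does, which lowers the nearest value. Under 500 bp there were 485 replicate 2-only peaks by edge and 321 by midpoint. From 500 to 1000 bp there were 374 and 396. The density was 3.06, 2.99 and 3.08 per 10 kb in the bands from 1000 to 2000, 2000 to 5000 and 5000 to 10000 bp. It was 2.53 from 10000 to 20000 bp and 2.32 at 20000 bp or more. Unbacked peaks were sparser near shared peaks. They numbered 0.818 per 10 kb at 500 to 1000 bp, 1.78 at 10000 to 20000 bp and 1.58 at 20000 bp or more. They can lie only outside replicate 2 peaks. Per 10 kb of sequence outside those peaks, the values in these bands were 1.29, 2.37 and 2.06. By edge-to-edge distance, replicate 2-only peaks were 98.8% of the peaks of either group under 500 bp. They were 77.0% at 500 to 1000 bp and 59.2% at 20000 bp or more. By the rule, this share also depends on how much of each band replicate 2 covers.

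The cover of the replicate 2 list fell from each band to the next, whereas the density of replicate 2-only peaks was highest from 500 to 1000 bp. Replicate 2 peaks covered 76.3% of the bases within 500 bp of a shared peak, 36.6% from 500 to 1000 bp, 30.3% from 5000 to 10000 bp and 23.1% at 20000 bp or more. Per 10 kb of covered sequence, replicate 2-only peaks numbered 3.37 within 500 bp and between 9.61 and 10.2 in each band beyond it. Within the covered sequence their density was therefore nearly level from 500 bp outward. A replicate 2-only peak can lie only where replicate 2 has a peak and replicate 1 has none. Counting by midpoint also lowers the value nearest the shared peaks. The part of each in that low value was not tested.

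**Figure D3:**
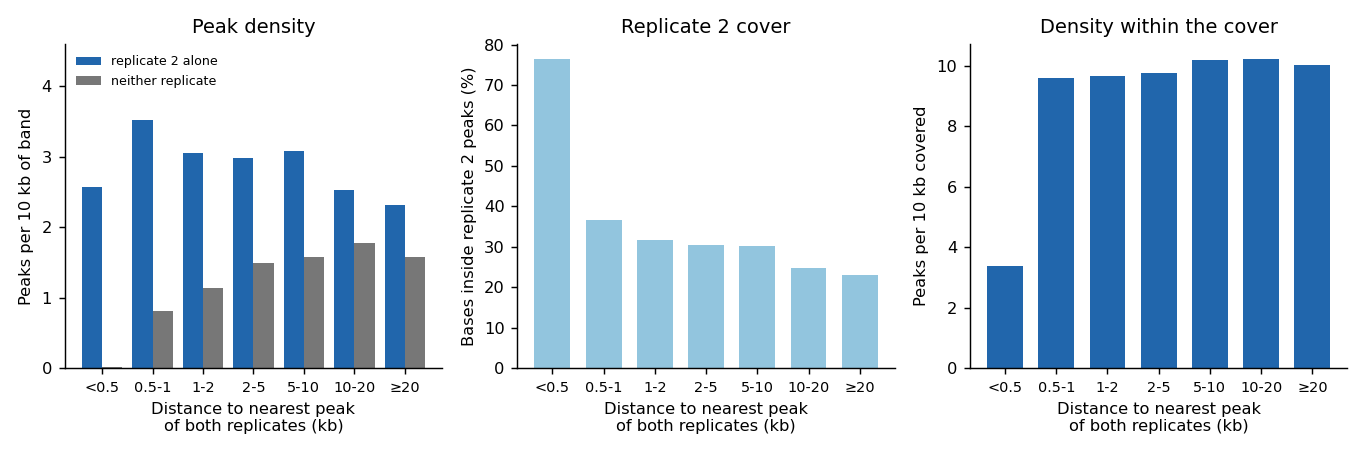
Peaks per 10 kb (left), percent of bases inside replicate 2 peaks (middle) and replicate 2-only peaks per 10 kb of those covered bases (right) in bands of distance to the nearest shared peak (x axes, kb). Peaks are counted by midpoint, which lowers the value of the nearest band. Replicate 2-only density is 2.32 to 3.52 per 10 kb in all bands, while the cover is 76.3% in the nearest band and 23.1% in the farthest.

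Scores and widths were similar at every distance from shared peaks beyond 500 bp. The median series-wide score was 6.25 within 500 bp, 7.41 from 500 to 1000 bp, 6.83 from 5000 to 10000 bp and 7.46 at 20000 bp or more. The median width was 284 bp within 500 bp and between 307 and 331 bp in every band beyond it. Across the 4818 peaks, the correlation with distance was close to zero for score (Spearman rho = 0.024) and for width (rho = -0.014). The enclosing replicate 2 peak had lower scores and widths farther from shared peaks. Its median score was 901 within 500 bp, 423 from 500 to 1000 bp, 196 from 1000 to 2000 bp and 126 from 10000 to 20000 bp, and then 154 at 20000 bp or more. Its median width was 2826 bp in the nearest band and 1435 bp in the farthest. These medians count a replicate 2 peak once for each replicate 2-only peak it held. Enclosing peaks that met replicate 1 held 99.2% of replicate 2-only peaks within 500 bp and 0.278% from 10000 to 20000 bp. The trend cannot be told apart from this change in the kind of enclosing peak.

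**Figure D4:**
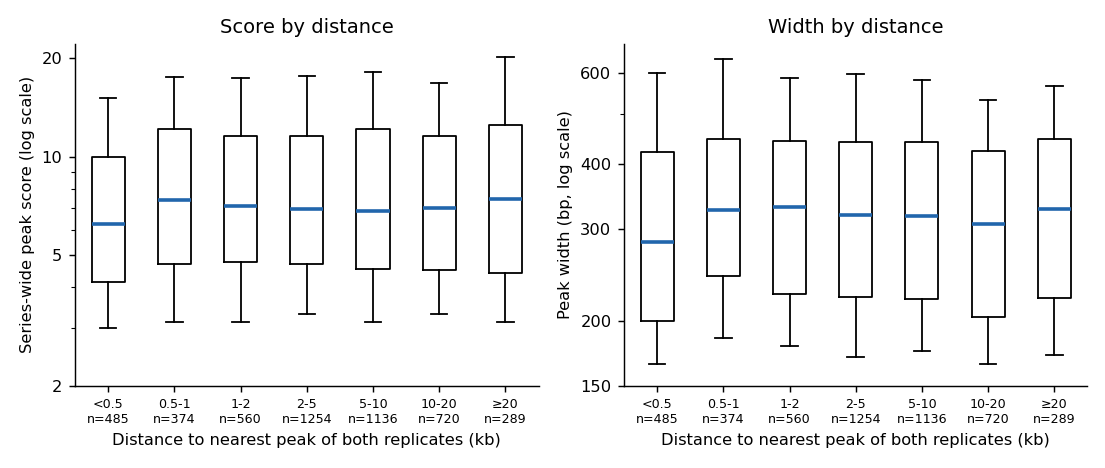
Series-wide score (left) and width in bp (right) of replicate 2-only peaks on log scales, by distance to the nearest shared peak in kb; boxes are quartiles, whiskers the central 80% of peaks. Medians run from 6.25 to 7.46 for score and from 284 to 331 bp for width, and the boxes of all bands overlap.

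The most remote replicate 2-only peak was at X 163337 to 163798, which is 49056 bp from a shared peak and 49004 bp from a replicate 1 peak. It was 462 bp wide, with a series-wide score of 24.6 and a replicate 2 score of 197. It lay in the longest stretch of X between neighbouring shared peaks, from 114281 to 229611. That stretch of 115331 bp held 5 replicate 2-only and 8 unbacked peaks, and replicate 2 peaks covered 4.21% of it. The other 4 of the 5 most remote made up 2 neighbouring pairs, each pair in its own replicate 2 peak. The first pair lay at X 3849752 to 3849917 and at X 3850237 to 3850762. The second pair lay at X 3853905 to 3854240 and at X 3854332 to 3854643. They fell in a different kind of stretch, X 3803708 to 3901633, which held 48 replicate 2-only and 13 unbacked peaks in 97926 bp. Replicate 2 peaks covered 40.6% of it and replicate 1 peaks 0.021%. It was the stretch between shared peaks with the most replicate 2-only peaks.

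Along the chromosome as a whole, most stretches between neighbouring shared peaks contained replicate 2-only peaks. Of 1339 such stretches, 372 (27.8%) had none, the median was 2 and the upper quartile 5. Of the 277 stretches of 20000 bp or longer, 0.361% had none. Of the 159 stretches under 1000 bp, 89.9% had none. Density was 2.30 per 10 kb in stretches under 1000 bp, 3.32 in those of 1000 to 5000 bp, 3.05 in those of 5000 to 20000 bp and 2.75 in longer ones. In series-wide order, 2053 replicate 2-only peaks (42.6%) had another replicate 2-only peak on both sides, and 141 (2.93%) had a shared peak on both sides. They formed 1699 unbroken runs, of which 633 were single peaks and 45 had 10 or more. The median gap between neighbouring replicate 2-only peaks was 1461 bp (408 to 4377 bp).

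The widest separation was 90541 bp, from X 9119459 to 9209999. It was not empty, since it held 4 shared, 24 unbacked and 3 replicate 1-only peaks, and replicate 2 peaks covered 6.32% of it.

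Replicate 2-only peaks were found in every part of X. Divided into 3 segments of equal length, X held 1622 of them in the left segment, 1566 in the middle one and 1630 in the right one. Over 17 complete windows of 1 Mb there were 272 ± 41.2 per window (SD over windows). They were fewest in the first window, with 179, followed by the window from X 8000001 to 9000000 with 207, and most numerous from X 5000001 to 6000000 with 324. Their share of all X peaks was 51.3% to 60.6% per window, and 37.8% to 69.5% in windows of 250 kb. The median width was 293 to 332 bp per 1 Mb window and 256 to 388 bp per 250 kb window. The median score was 6.40 to 7.63 and 5.23 to 10.6, respectively.

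Windows rich in replicate 2-only peaks were mainly those that replicate 2 covered more. Across the 17 windows, their number followed the percent of the window inside replicate 2 peaks (Pearson r = 0.933, Spearman rho = 0.914), as the rule itself requires such cover. It followed the number of shared peaks less closely (r = 0.603, rho = 0.452) and that of unbacked peaks least (r = 0.395, rho = 0.156). Over 70 windows of 250 kb, the values were r = 0.884 and rho = 0.854 for cover, and r = 0.417 and rho = 0.364 for shared peaks. For unbacked peaks they were r = -0.0087 and rho = -0.10. These values describe windows of 1 chromosome from the same lists and carry no test. Per 10 kb of replicate 2 cover the windows held 7.35 ± 0.419 replicate 2-only peaks (SD, 6.74 to 7.99), so the spread over windows was 5.70% of the mean, against 15.1% for the plain number. In windows of 250 kb the number ran from 14 in the first, at X 1 to 250000, to 101 at X 10500001 to 10750000. Replicate 2 covered 11.1% of the former and 53.3% of the latter, which held 5 and 29 shared peaks.

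**Figure D5:**
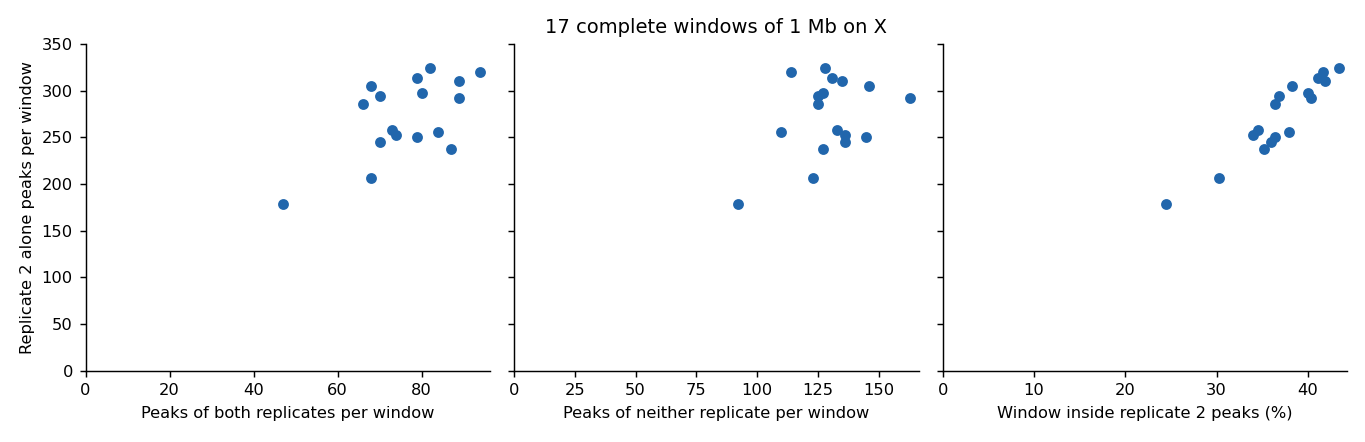
Replicate 2-only peaks (y axis) in 17 complete windows of 1 Mb on X against shared peaks, unbacked peaks and the percent of the window inside replicate 2 peaks (x axes). Points lie closest to a line for replicate 2 cover (r = 0.933), and the lowest point, with 179 peaks, is the first window of X.

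The 1 bp rule had few close cases. The smallest overlaps with replicate 2 were 16 bp at X 16072718 to 16072879, 23 bp at X 6033030 to 6033175 and 26 bp at X 14537133 to 14537282, with series-wide scores of 5.26, 2.82 and 2.82. Under 50% of the width was covered in 10 peaks. Just outside the rule, the unbacked peak at X 10681110 to 10681257 (score 2.82) missed a replicate 2 peak by 1 bp. Those at X 7139618 to 7139801 (score 2.82) and X 11992169 to 11992485 (score 7.77) missed one by 12 and 19 bp. On the replicate 1 side, the closest replicate 2-only peaks lay 3 bp (X 12171251 to 12171475), 7 bp (X 17236565 to 17236765) and 10 bp (X 3115036 to 3115354) from a replicate 1 peak. Their scores were 4.79, 4.15 and 6.62, and all 3 were inside replicate 2 peaks that met replicate 1. The widest replicate 2-only peak, 2407 bp at X 12364418 to 12366824, was likewise 73 bp from a shared peak and inside a replicate 2 peak scoring 3100.

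Other wide ones differed in setting. That at X 14520763 to 14522782 (2020 bp, score 33.65) lay 123 bp from a shared peak, and that at X 3076014 to 3077960 (1947 bp, score 10.6) lay 497 bp from one. Those at X 16758255 to 16760210 (1956 bp, score 7.91) and X 11482050 to 11483944 (1895 bp, score 30.6) were 10375 and 7189 bp away.

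On the autosomes the same rule gave 144 of 858 peaks, or 16.8%. There the replicate 2 list held 254 peaks and the replicate 1 list 274, whereas on X they held 3652 and 1451. The share under the rule depends on these lists, so the shares on X and the autosomes are not alike in basis. Their median width was 296 bp (212 to 365 bp) and their median score 7.98 (5.06 to 12.9), within the interquartile ranges on X. They lay in 121 replicate 2 peaks. Of them, 8 (5.56%) were in a replicate 2 peak that also met replicate 1, against 19.9% on X, a share that moved between 6.94% and 45.8% with the processing as given above. The median distance to a shared peak of the same chromosome was 194354 bp, where shared peaks are sparse, with 164 on the 5 autosomes together. No test of the difference between X and the autosomes was made.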

How the data were processed

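The data were 3 peak lists in GFF3 format, deposited by the authors, of which 1 belonged to each ChIP replicate and 1 to the series as a whole. The submitters' processing notes name BWA as a tool and ce10 as the build. Per the file headers, the lists are on WormBase WS220 and come from MACS (replicates) and MACS v2 (series-wide). The sources used here do not give versions, the threshold, the use of input or any pooling. The deposited score of each peak has no stated definition. Levels were set against each other within 1 list at a time, and between lists ranks alone were correlated. It started at 1.3 in the series-wide list, and at 50.0 and 50.02 in the replicate lists, so the lists do not share a scale. The labels do not name separate cultures.

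Overlaps, distances and window counts were computed with scipy 1.17.1, pandas 2.3.3 and numpy 2.4.6 under Python 3.11.15, and figures with matplotlib 3.10.9. The functions were tested on simulated data. The length of X was taken as its largest listed coordinate, 17718897. Shares have 95% Clopper-Pearson intervals. Overlapping was defined as 1 bp or more, and alternatives are given below. Named regions were the 10 highest-scoring, 5 widest and 5 most remote replicate 2-only peaks, and 3 cases on each side of the thresholds. Also named were the 5 replicate 2 peaks that held the most replicate 2-only peaks. The 4 peaks tied at 10 were placed by score, and the lowest-scoring of them is outside the rule. The peaks, lists and rules were chosen with earlier results of these data known. No genome of the build was at hand, so regions are given by position, without sequence or genes.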

Additional observations from a re-analysis of the deposited data

How the results depend on the processing

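Of 48 alternative values over 6 results, 23 stayed within 1.5 times the main count or within the 95% interval of the median or share, and 25 did not; the cause was not tested unless fewer or merged peaks set it by construction. Requiring 50% cover by replicate 2, or the midpoint inside it, left 4808 replicate 2-only peaks and changed no result. With replicate 1 peaks extended by 200 bp, 18.1% were inside a replicate 2 peak that met replicate 1. In the highest-scoring 50% of X peaks, 2464 were replicate 2-only (139 per Mb), with a median width of 401.5 bp, a median score of 11.5 and 17.7% inside such a peak. With replicate 2 peaks of score 100 or more, these were 332 bp, 7.33 and 26.8%, and the median distance to a shared peak was 3844 bp. With the replicate 2 X list cut to the length of replicate 1, 1940 remained under the rule (111 per Mb), with medians of 326.5 bp, 7.18 and 2299 bp, and 45.8% inside such a peak. After merging within 500 bp there were 2956 (167 per Mb), with medians of 458 bp, 8.69 and 4917 bp, and 6.94% inside such a peak. From midpoint to midpoint the median distance was 4870.5 bp. Without ChIP replicate 1, every X peak met by replicate 2 enters, giving 6158 with medians of 370 bp and 8.72 (8.715), and no distance to shared peaks. Without ChIP replicate 2 the rule has no members. No paired analysis was possible because the input samples have no list among those analysed here and no result comes from a test. Unknown read depth limits every count, and a peak missing from replicate 1 may lie below its threshold.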

Other observations

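Very wide replicate 2 peaks enclosing replicate 2-only peaks included both low-scoring and high-scoring ones. Those at X 11470936 to 11486988 (16053 bp) and X 3110323 to 3127000 (16678 bp) scored 103 and 86.8, and held 17 and 10 replicate 2-only peaks. Replicate 2 peaks of 10017 and 12655 bp around the widest replicate 2-only peaks both scored 3100. These regions were chosen after their values were seen.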
